A study of Mus musculus with 6 samples.

Results

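The genes that attach ISG15 to proteins and take it off again were examined in dendritic cells (DCs), which take up antigen and show it to T cells. The 5 genes were Isg15, the modifier, Uba7, its activating enzyme (E1), Ube2l6, its conjugating enzyme (E2), Herc6, its main ligase (E3) in the mouse, and Usp18, the protease that removes it. They were taken by name and matched to probes by gene symbol in the platform annotation. A probe counted as measured when its detection p was under 0.05 on at least 3 of the 6 arrays. Of the 5 genes, 4 had a probe under their symbol and 2, Uba7 and Usp18, were measured, among 5901 measured named genes of 16593 with a probe. Isg15 and Ube2l6 did not reach the detection rule, and Herc6 was not analysed here because no analysed probe carried its symbol.

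ISG15 is a small protein built like a pair of joined ubiquitins, and interferon switches on its gene and those of its enzymes. It is joined to other proteins by an enzyme chain in the manner of ubiquitin, and it also acts as a free protein inside and outside the cell. Usp18 has a further role apart from cutting ISG15 off its targets: bound to the interferon receptor chain Ifnar2 with the help of Stat2, it damps signalling from the type I interferon receptor. In DCs, which sense microbes and can make or receive interferon, these genes belong to the broad interferon-stimulated programme.

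The DCs were sorted by flow cytometry from peripheral lymph nodes of mice given broad-spectrum antibiotics by mouth through a gavage tube over 10 days (3 arrays) and of mice labelled as having no treatment (3 arrays). Strain, age, sex, the antibiotics used and the sorting gate are not given in the sources used here. No gavage is named for the untreated mice, so if they had none, gavage and antibiotics cannot be told apart. Replicate numbers are given without word on whether each array holds its own animals, so the p-values cover array-to-array spread that may be technical only. The study asked what the antibiotics changed in the cells' gene expression.

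Between 6876 and 7674 of 25697 probes were detected per array, and correlations between arrays across the tested genes lay between 0.963 and 0.984. Antibiotics replicate 1 stood apart on the first principal component, at -25.3 against 1.36 to 11.5 for the other 5 arrays. The DC gene Itgax (CD11c) was detected on all 6 arrays, and 8 of 10 core DC markers were measured, while Flt3, the receptor for a DC growth factor, gave a detected signal on 0. With 3 arrays a group, precision is limited throughout. The test across all 6331 genes and unnamed probes was limma on normalized log2 intensity with Benjamini-Hochberg adjustment, and 0 of them (0%) reached an adjusted p of 0.05, the smallest being 0.214. At an unadjusted p under 0.05 there were 274 (4.33%) lower and 216 (3.41%) higher after antibiotics.

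Neither measured gene of the ISG15 system passed the test. Usp18 averaged 0.782 of its untreated level after antibiotics (limma's 95% interval 0.611 to 1.002), and Uba7 averaged 0.909 of its untreated level with an interval that ran from 0.588 to 1.41. Both ratios are on the normalized scale, whose offset draws them slightly towards 1. The signal of Isg15 was above background on 0 of 3 antibiotics arrays and on 2 of 3 untreated arrays. The Ube2l6 probe was above background on 0 of 6 arrays. The median log2 fold change of the 2 measured genes was -0.25, against 0.017 over all 6331, of which 46.4% lay below 0.

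**Figure D1:**
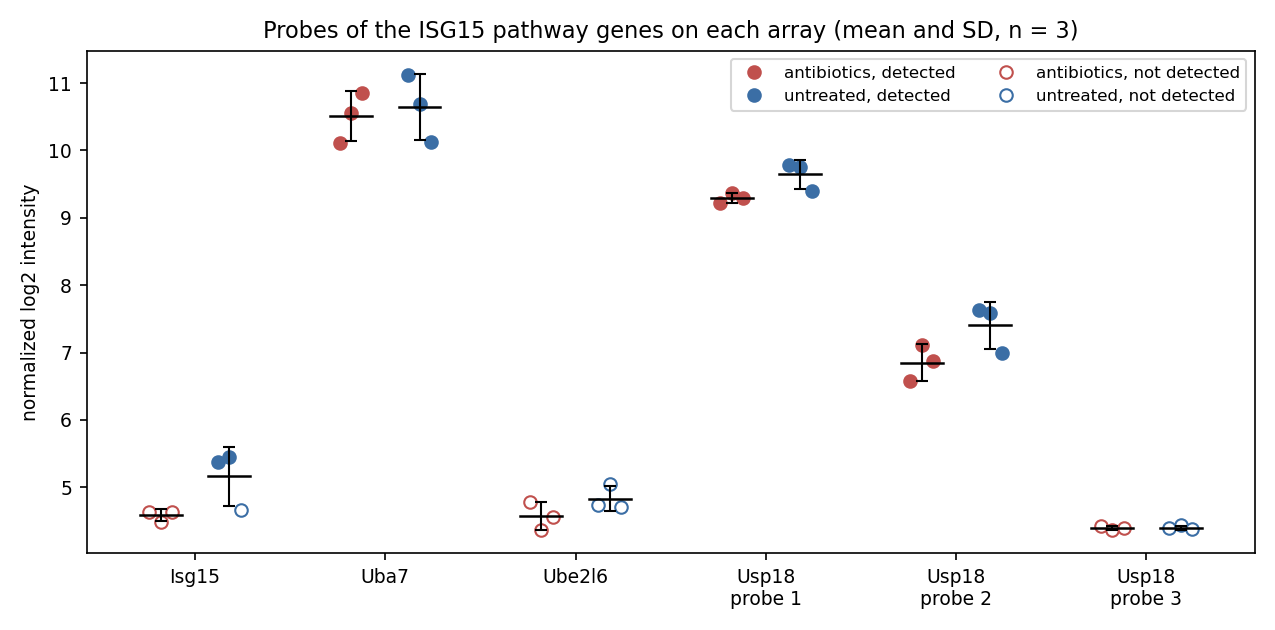
Normalized log2 intensity (vertical axis) of each probe for Isg15, Uba7, Ube2l6 and Usp18 on 3 antibiotics and 3 untreated arrays, with filled points where the probe was detected and open points where it was not, and lines for the mean and SD. The 3 antibiotics arrays of the first Usp18 probe sit between 9.22 and 9.37, below the 3 untreated arrays at 9.40 to 9.78, while the Uba7 arrays of both groups spread over the same range.

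Isg15, the modifier itself, had 1 probe. Its deposited intensity was 91.9, 86.6 and 93.5 on the antibiotics arrays, against 107.9, 121.3 and 90.1 on the untreated arrays. The detection p was 0.159, 0.243 and 0.133 after antibiotics, against 0.0175, 0.0063 and 0.119 without, so the probe was detected on untreated replicates 1 and 2 and on no other array. All 3 antibiotics arrays lay close to background, and untreated replicate 3 lay with them. Because the probe was not detected above background on any antibiotics array, only a rough comparison can be given. With the antibiotics arrays set at the lowest signal of a detected probe, the untreated mean was 1.04-fold higher. That mean includes untreated replicate 3, itself not detected, so the value is not a firm lower limit and no difference is shown. The measured log2 means were 4.58 ± 0.087 after antibiotics and 5.16 ± 0.44 without (SD, n = 3 each). The deposited table pairs this probe with a predicted transcript record, while the platform annotation assigns it to Isg15. Whether this probe reads the present Isg15 transcript was not tested.

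The stretch around the start of the Isg15 gene is shown because it carries the best known interferon response element of this gene group, and that of Uba7 for comparison, as a member that was measured. Both are RefSeq sequences of 300 bases, 250 before the start site and 50 from it, in build GRCm38.p6. Isg15 lies on the minus strand at chr4:156200769-156201068 and Uba7 on the plus strand at chr9:107975317-107975616. Capitals mark matches on either strand to GAAA followed after any 2 bases by GAAA, the core of the interferon-stimulated response element, in Isg15, and to the shorter AANNGAAA, the core bound by interferon regulatory factors, in Uba7.
Isg15: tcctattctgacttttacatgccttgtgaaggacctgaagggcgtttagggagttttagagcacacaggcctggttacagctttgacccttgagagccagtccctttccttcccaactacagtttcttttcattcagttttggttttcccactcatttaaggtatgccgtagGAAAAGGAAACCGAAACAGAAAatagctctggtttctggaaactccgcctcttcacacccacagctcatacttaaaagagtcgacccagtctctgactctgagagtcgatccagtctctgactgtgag
Uba7: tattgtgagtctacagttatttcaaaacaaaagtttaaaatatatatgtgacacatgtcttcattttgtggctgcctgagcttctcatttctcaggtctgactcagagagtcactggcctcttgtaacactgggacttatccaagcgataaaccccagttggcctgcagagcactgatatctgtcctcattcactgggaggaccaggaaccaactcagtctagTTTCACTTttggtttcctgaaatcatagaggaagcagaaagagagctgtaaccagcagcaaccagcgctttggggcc
Isg15 held 3 overlapping matches to the paired GAAA motif, starting at positions -78, -72 and -66 from the start site. Every paired GAAA also contains AANNGAAA, so the motifs are not separate evidence. Isg15 held 4 matches to AANNGAAA, including a match apart from the paired motif, on the opposite strand from position -128. Uba7 held 0 matches to the longer motif and 1 to AANNGAAA, on the opposite strand from position -27. The windows of Ube2l6 and Herc6 held neither. The paired motif stood in 3.44% and AANNGAAA in 23.9% of all 32851 RefSeq promoter windows of this length. Counted per gene over any window, the paired motif stood in 46.4% of 28 other interferon-stimulated genes and 3.99% of all genes. For AANNGAAA these shares were 82.1% and 26.7%. A match is a run of letters and not a shown binding site, and a window without one says only that those letters are not in it. Promoter sequences matched 4 of the 5 genes, and Usp18 is named only.

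Uba7, the E1 enzyme that activates ISG15 and begins the chain, was bright on every array. Its deposited intensity was 1001, 1545 and 1976 on the antibiotics arrays, against 2164, 2152 and 1094 on the untreated arrays. After normalization these were 10.11, 10.56 and 10.85 in log2 units after antibiotics, against 11.11, 10.70 and 10.13 without. The groups overlapped widely: antibiotics replicate 1 and untreated replicate 3 were both low, and antibiotics replicate 3 was above untreated replicates 2 and 3. The log2 fold change was -0.14 (SE 0.28, limma adjusted p = 0.922), and the level was 10.51 ± 0.37 after antibiotics and 10.65 ± 0.50 without (SD, n = 3 each). The direction itself hung on single arrays, as the change was 0.059 when antibiotics replicate 1 was left out, 0.096 when untreated replicate 1 was, and -0.40 when untreated replicate 3 was. A fall to 0.588 of the untreated level or a rise to 1.41 times that level both lie within the interval, so an unchanged level is not shown either.

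Ube2l6, the E2 enzyme that receives ISG15 from Uba7, had 1 probe with intensities of 96.1, 81.4 and 90.8 after antibiotics, against 92.4, 108.2 and 91.3 without. The detection p was lowest on untreated replicate 2, at 0.0501. The groups overlapped, and with no array above background no fold is given.

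Usp18, the protease, had 3 probes. The brightest gave a deposited intensity of 572, 732 and 739 on the antibiotics arrays, against 907, 1154 and 682 on the untreated arrays. After normalization the values were 9.22, 9.37 and 9.29 in log2 units after antibiotics, against 9.78, 9.76 and 9.40 without. All 3 antibiotics arrays now lay below all 3 untreated arrays, although the gap to untreated replicate 3 was narrow, and in the deposited intensities that array lay below antibiotics replicates 2 and 3. Such a lack of overlap in this direction occurred in 6.62% of all genes tested. The log2 fold change was -0.35 (SE 0.16), with a limma p of 0.0512 that was 0.634 after adjustment. The spread was wider without treatment, at 9.65 ± 0.22 in the untreated group beside 9.29 ± 0.076 in the antibiotics group (SD, n = 3 each).

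The second Usp18 probe was dimmer and showed the same order of arrays within the untreated group. Its intensities were 152, 208 and 197 after antibiotics, against 251, 306 and 190 without. The normalized log2 values were 6.57, 7.11 and 6.88 after antibiotics, against 7.63, 7.59 and 6.9985 without, so the groups overlapped through antibiotics replicate 2 and untreated replicate 3. In a fit in which each of the 7507 measured probes was its own row, this probe had a log2 fold change of -0.55 (SE 0.22, limma adjusted p = 0.594). The deposited table pairs it with a predicted transcript record. The third probe was detected on 0 arrays, at 81.9 to 84.5 after antibiotics and 81.0 to 87.2 without. Both measured probes thus put Usp18 lower in the antibiotics group, and neither passed.

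**Figure D2:**
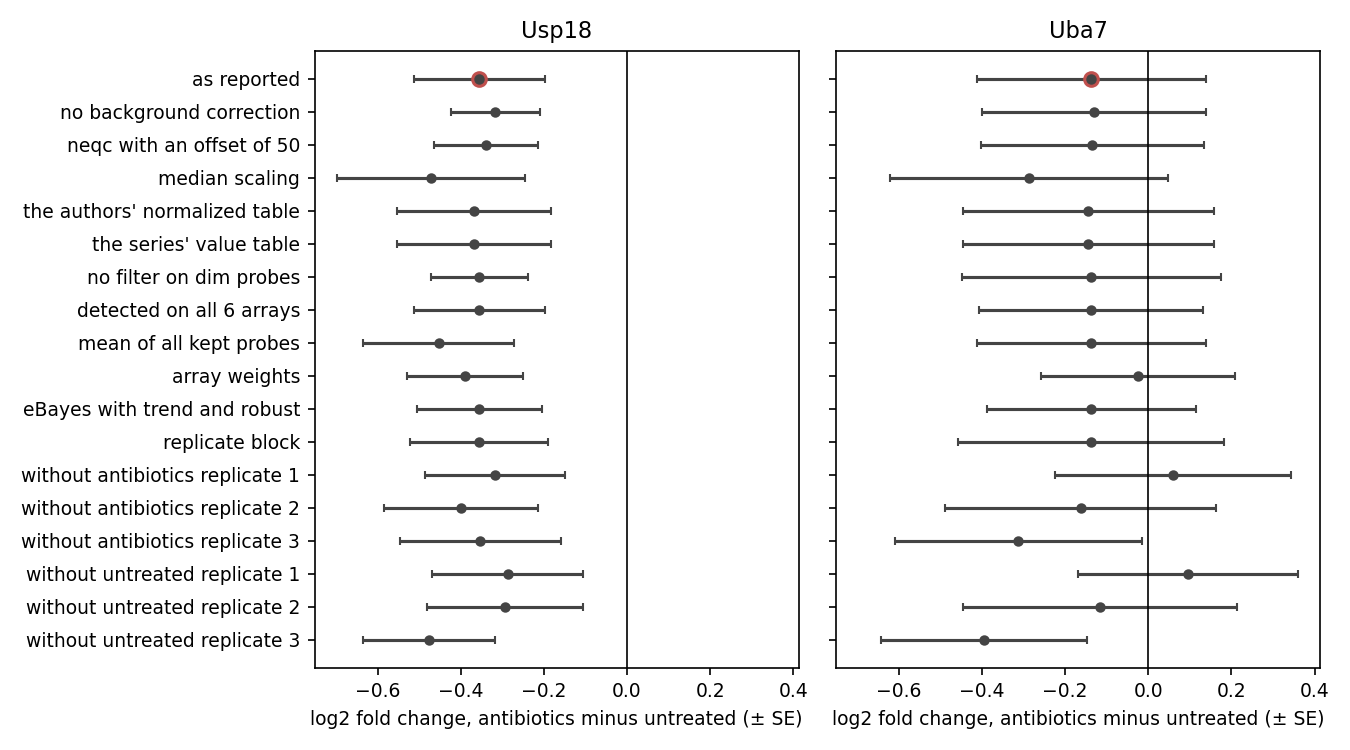
Log2 fold change of Usp18 and Uba7, antibiotics minus untreated (horizontal axis, bars show ± SE), as reported and under 17 other settings. Usp18 lies between -0.48 and -0.29 under the other settings, and Uba7 lies on both sides of 0, between -0.40 and 0.096.

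Across the arrays Usp18 and Uba7 were highest on untreated replicate 1. Relative to its mean over the 6 arrays, Usp18 stood at -0.25, -0.10 and -0.18 in log2 units on the antibiotics arrays, against 0.31, 0.29 and -0.073 on the untreated arrays. Uba7 stood at -0.46, -0.017 and 0.27 on the antibiotics arrays, against 0.54, 0.12 and -0.45 on the untreated arrays. Untreated replicate 3 was therefore the lowest untreated array for Isg15, Uba7 and both measured Usp18 probes. The median of 24 other measured interferon-stimulated genes was also lowest there within its group, at 0.025 beside 0.40 and 0.29 on untreated replicates 1 and 2, and it lay at -0.18, -0.24 and -0.16 on the antibiotics arrays.

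**Figure D3:**
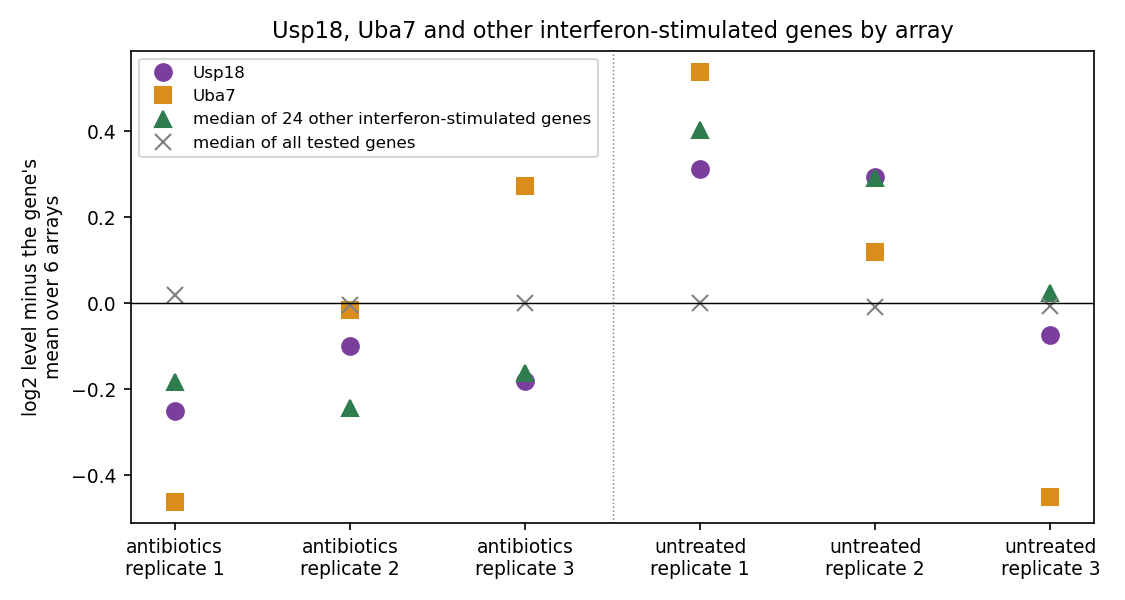
Log2 level of Usp18, Uba7, the median of 24 other interferon-stimulated genes and the median of all tested genes (vertical axis, each gene minus its mean over 6 arrays) on the 3 antibiotics and the 3 untreated arrays. Usp18 and the median of the other interferon-stimulated genes are below 0 on all 3 antibiotics arrays, and Uba7 is low on antibiotics replicate 1 and untreated replicate 3.

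The correlation of Usp18 with the 24 other interferon-stimulated genes, given as a description over 6 arrays that share their normalization, had a median of 0.78 and was above 0 for 19 of them, where the median over all tested genes was -0.056. For Uba7 the median was 0.44, with 20 of 24 above 0, where the median over all tested genes was -0.035. Usp18 and Uba7 had a correlation of 0.63 with each other. The named genes most like Usp18 by Pearson correlation over the 6 arrays were Slfn2, an interferon-inducible member of the Schlafen family, at 0.991, Ift172, a part of the intraflagellar transport machinery of cilia, at 0.988 and Lmtk2 at 0.987. Those most like Uba7 were Tspan33 at 0.979, Ncf1, a subunit of the phagocyte oxidase, at 0.979 and Dclre1b at 0.977. Most like the mean of both genes were Tecpr2 at 0.994, Tspan33 at 0.991, Ncdn at 0.991, Mical3 at 0.988 and Mast2 at 0.987. These are the top ranks among 5899 genes on only 6 points, where high values are easy to find. Slfn2 had log2 values of 5.84, 6.13 and 5.85 after antibiotics, against 6.79, 6.74 and 6.03 without. Its low value on untreated replicate 3 follows from its choice by correlation with Usp18 and is no further observation.

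Other proteins linked to ISG15 were measured in part. Of 6 reported further ligases and cross-reactive proteases, 1 was measured, the ligase gene Arih1, with a log2 fold change of -0.089 (SE 0.14). Trim25, a ligase gene induced by interferon, and Usp14, whose protein can also bind ISG15, were each detected on 2 arrays and not measured, and Usp2, Usp5 and Usp13 were detected on 0. The integrin LFA-1, reported as a receptor for ISG15 outside the cell, is a pair of chains. Of their genes, Itgal was not analysed here for want of a probe with its symbol. Itgb2, the gene of the other chain, stood at 0.23 (SE 0.14) and did not pass (limma adjusted p = 0.745). All 3 antibiotics arrays lay above all 3 untreated ones for Itgb2, as in 7.12% of all genes tested. Of 18 proteins reported to carry ISG15, 5 had a measured gene, 3 lower and 2 higher, with a median of -0.17. Among these Eif2ak2 (PKR), the kinase that halts translation when it meets double-stranded RNA, stood at -0.47 (SE 0.16, limma adjusted p = 0.565). Eif4e2, a cap-binding protein, stood at -0.33, but its other probe gave 0.29, and Ube2n, a ubiquitin E2, stood at 0.24. None of these genes passed.

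Upstream of the ISG15 genes, 9 of 13 listed genes of interferon signalling were measured, 7 lower and 2 higher, with a median log2 fold change of -0.11. At an unadjusted p under 0.05, 2 of the 9 were lower, where 4.33% of all genes tested were, and 0 passed after adjustment. Irf7, the factor that amplifies interferon production, stood at -0.54 (SE 0.15, limma adjusted p = 0.449), and Socs3, a feedback inhibitor of cytokine receptors, stood at -0.50 (SE 0.20, limma adjusted p = 0.605). Stat2, which holds Usp18 at the receptor, stood at -0.28 (SE 0.16) and its partner in the interferon-activated complex, Irf9, at -0.11 (SE 0.20). Ifnar2, the receptor chain that Usp18 binds, was dim, detected on 5 arrays, and stood at 0.066 (SE 0.16). The receptor kinase gene Tyk2 stood at -0.096, Irf1 at -0.11, Irf8 at 0.16 and Skp2, part of a ubiquitin ligase reported to target Usp18 for breakdown, at -0.34. Ifnar1, Jak1 and Socs1 were detected on 0 arrays. Of 17 interferon genes, Ifna1 and Ifna6 were measured, at 0.087 and 0.14, and probes of these near-identical genes can share signal. Both were dim, with group means of 5.44 to 5.63 in log2 units, where the lowest detected probe per array lay at 5 to 5.185. Ifnb1 was detected on 0 arrays.

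Set beside the 24 other interferon-stimulated genes, the changes of Usp18 and Uba7 were not outside their range. Of the 24, 22 were lower and 2 higher after antibiotics, with a median log2 fold change of -0.41 and a range of -1.21 to 0.10. Irf7, Irf9 and Stat2 among them were also counted with interferon signalling, and Eif2ak2 with the proteins reported to carry ISG15. These lists are therefore not separate counts. At an unadjusted p under 0.05, 9 were lower, where 4.33% of all genes tested were, and in 11 the groups did not overlap and the antibiotics group was lower, where 6.62% of all genes did so. None passed after adjustment, and the list was written with earlier results of these data known, so its counts are a description only. When the background was not corrected, the median of the 24 was -0.22, the weakest of the alternatives. It was -0.51 with median scaling and, at its strongest, -0.605 when untreated replicate 3 was left out. Markers of DC subsets and of other cells are given beside these genes, and none of them passed after adjustment. Core DC markers summed to 17590 to 18250 after antibiotics, against 17970 to 19060 without, so the groups overlapped. The sums of T cell, NK cell, neutrophil and lymph node stroma markers overlapped as well, each from 1 or 2 measured genes. The lists that follow are those whose sums did not overlap. Of plasmacytoid DC markers 5 of 10 were measured, 4 lower and 1 higher, and their summed signal was 272 to 378 after antibiotics, against 379 to 480 without, so that the ranges nearly touched. One of the 5, Bst2, is itself an interferon-stimulated gene, and the marker gene Ccr9 was detected on 0 arrays. Of markers of cDC1, the DC subset specialised in cross-presentation, 6 of 10 were measured, 6 higher and 0 lower, with a median log2 fold change of 0.32. Their summed signal was 2595 to 2773 after antibiotics, against 2149 to 2403 without, and Clec9a and Naaa were detected on 0 arrays. The brightest measured cDC1 marker, Irf8, stood at 0.16 and was also counted with interferon signalling. Macrophage and monocyte markers, 4 of 12 measured, summed to 1660 to 1878 after antibiotics, against 1052 to 1538 without. Most of that sum was the lysozyme gene Lyz2, at 0.54 with the probe used and 0.14 with its other probe. Adgre1 stood at 0.33 with the probe used and 0.22 with its other probe, while the complement genes C1qa and C1qb stood at 0.029 and 0.018. B cell markers, 3 of 10 measured and with Cd79a, Ms4a1 and Pax5 detected on 0 arrays, summed to 190 to 231 after antibiotics, against 259 to 316 without. The brightest of them, Cd79b, stood at -0.057, while the dimmer Cd22 and Fcmr, each detected on 5 arrays, stood at -0.79 and -1.06. The part of these cells in the values of Usp18 and Uba7 was not tested. In sorted cells measured in bulk, fewer cells of a type and less RNA per cell cannot be told apart.

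**Figure D4:**
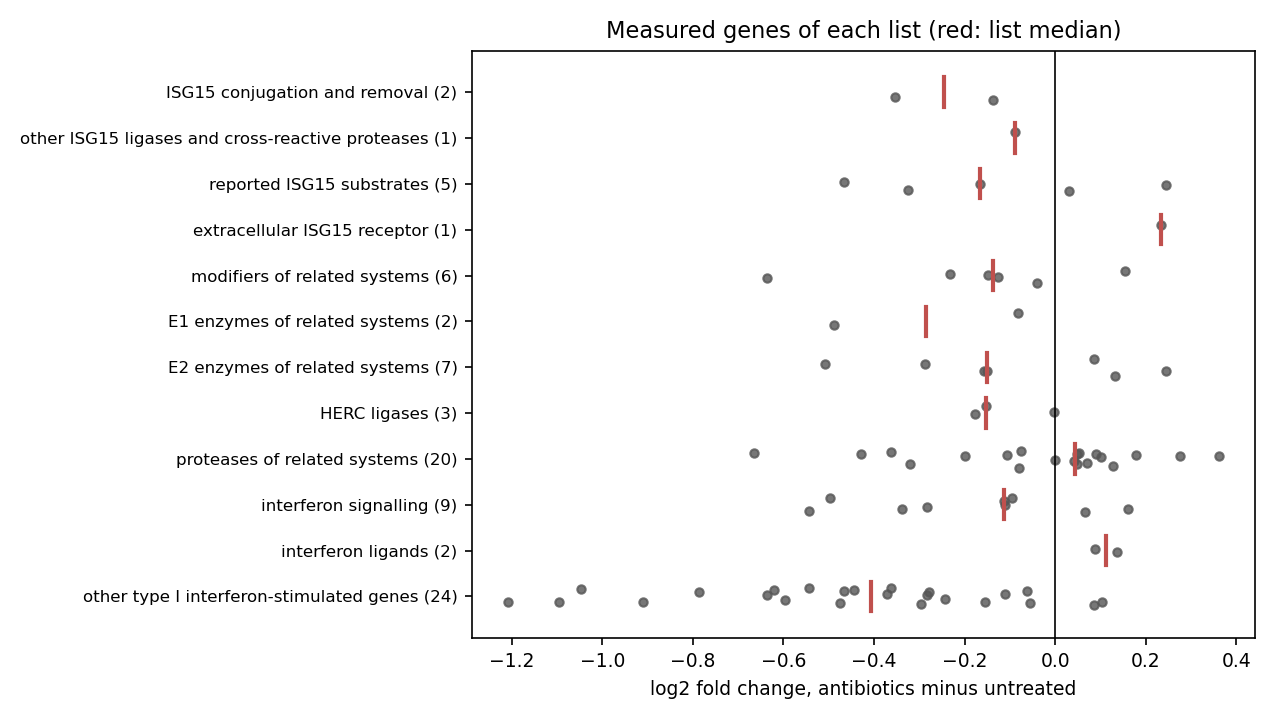
Log2 fold change, antibiotics minus untreated (horizontal axis), of each measured gene in the lists around the ISG15 system, with the number measured in brackets and a red line for the list median. The 24 other interferon-stimulated genes have a median of -0.41 and lie mostly left of 0, while the 20 proteases of related systems spread on both sides of 0.

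The related ubiquitin and ubiquitin-like systems gave a yardstick for conjugation enzymes at large. Of 79 genes for modifiers, E1 and E2 enzymes, HERC ligases and proteases, 38 were measured, 23 lower and 15 higher, with a median log2 fold change of -0.077. At an unadjusted p under 0.05, 4 of the 38 were lower and 0 higher, where 4.33% of all genes tested were lower and 3.41% higher, and 0 passed after adjustment. Sumo2, a modifier of the SUMO family, stood at -0.64 (SE 0.20), Nae1, a subunit of the E1 for NEDD8, at -0.49 (SE 0.18), the NEDD8 E2 gene Ube2f at -0.51 (SE 0.19) and the ubiquitin protease gene Usp47 at -0.66 (SE 0.14), with limma adjusted p between 0.344 and 0.565. The other probes of Ube2f gave 0.11, -0.37 and -0.0016. In the other direction, the highest of the 38 was Senp2, a protease gene of the SUMO system, at 0.36 (SE 0.23). Uba1 and Ube2l3, the ubiquitin counterparts of Uba7 and Ube2l6, were not analysed here for want of a probe with their symbol. Of the relatives of Herc6, 3 were measured: Herc2 stood at -0.15 (SE 0.16), Herc3 at -0.0022 (SE 0.14) and Herc4 at -0.18 (SE 0.25). The 20 measured proteases of these systems, which hold members of the USP family of Usp18 and of other families, had a median of 0.044, with 9 lower and 11 higher.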

How the data were processed

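RNA of sorted lymph node DCs was hybridised to Illumina mouse bead arrays, 3 antibiotics and 3 untreated, grouped by their titles. The authors deposited non-normalized probe intensity with a detection p-value per probe and array, per the file headers. Their second table holds normalized intensity on a linear scale, by a method not stated in the labels or headers, and the series' value table equals it in all 154182 cells.

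With limma 3.58.1 in R 4.3.3, neqc inferred background per array from detection p-values, added an offset of 16, quantile-normalized and took log2, which understates changes of dim genes and hides a shift of all genes together. Probes with detection p under 0.05 on at least 3 arrays were kept (7507 of 25697). Of all probes, 23978 had 1 symbol in the platform annotation, 0 had several and 1719 had none. The brightest kept probe stood for a gene, which left 6331 rows. Groups were compared with lmFit and eBayes (8.57 degrees of freedom), Benjamini-Hochberg over all rows and a threshold of 0.05. The procedure was tested on simulated data. An exact permutation test of 3 against 3 arrays cannot give a p under 0.1. Marker sums add linear normalized signal less the offset.

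The members and lists were chosen with earlier results of these data known, and lists come from general knowledge. All 5 members are reported, with the measured interferon signalling genes, the closest relatives and the genes most correlated with the members. Genes of the other lists around the ISG15 system were picked by smallest p, up to 3 per list. Some of these appear only within the counts. Motifs were searched on both strands of RefSeq promoter windows. Alternatives covered background correction, offset, scaling, the authors' table, filters, probe choice, array weights, the variance prior, the replicate block and each array left out.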

Additional observations from a re-analysis of the deposited data

How the results depend on the processing

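Usp18 was lower after antibiotics under all 17 alternatives, with log2 fold changes of -0.48 to -0.29, unadjusted limma p of 0.0173 to 0.157 (7 under 0.05) and adjusted p of 0.378 to 0.943. These alternatives are not separate checks. The filters, the variance prior and the replicate block left the Usp18 estimate unchanged at -0.355, so they could not alter its direction. The authors' table and the series' value table are equal and both gave -0.368. Leaving out 1 array gave -0.48 to -0.29 for Usp18, -0.40 to 0.096 for Uba7 and -0.44 to -0.095 for the median of both. Uba7 turned positive without antibiotics replicate 1 (0.059) or untreated replicate 1 (0.096), was -0.29 with median scaling and -0.025 with array weights, and had adjusted p of 0.745 to 0.983. Under all 17, 0 genes reached an adjusted p of 0.05 (smallest 0.094 to 0.686). At an unadjusted p under 0.05 it was 490 as reported and 340 to 1094 otherwise, the highest without the filter on dim probes, where 18312 rows were tested. Median scaling put 79 of 359 such genes (22%) higher after antibiotics, beside 216 of 490 (44.1%) as reported. Without that filter Isg15 stood at -0.58 (SE 0.22, limma adjusted p = 0.832) and Ube2l6 at -0.26 (SE 0.14, limma adjusted p = 0.894), values from probes near background. No alternative was run for these genes otherwise, since they have no value as reported. With the replicate number as a block, Usp18 was -0.35 and Uba7 -0.14, with a count of 0. Same-numbered arrays did not deviate together (correlations of -0.15 to -0.047). With so few arrays per group these correlations cannot decide whether same-numbered arrays were handled together, and the labels do not say.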
